A study of Mus musculus with 4 samples.

Results

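Gap junctions and pannexin channels are read here from 6 mouse genes, the connexins Gjd2, Gja10, Gjc1 and Gja1 and the pannexins Panx1 and Panx2, in nuclei of the mouse retina. The genes were chosen by symbol and not by a rule on their level, and all 6 were found among the 31053 genes of the deposited matrices. Earlier results of these data were known when they were chosen. Over the nuclei that passed quality control Gja1 had 7332 unique molecular identifiers (UMIs, 1 for each captured RNA molecule), Gjd2 2058, Gjc1 1470, Panx2 1327, Panx1 744 and Gja10 169.

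A gap junction is a channel that joins the cytoplasm of neighbouring cells. Each cell contributes a ring of connexin subunits, and ions and small molecules pass where rings of facing cells dock. In the retina such channels couple neurons electrically: Gjd2 encodes the main neuronal connexin of photoreceptors, AII amacrine cells and bipolar cells, Gja10 encodes a connexin of horizontal cells, Gjc1 encodes a connexin found in some bipolar cells and in vessels, and Gja1 encodes the connexin typical of astrocytes, pigmented epithelia and connective tissue. Pannexins resemble connexins in shape but mostly form channels in a single membrane, through which ATP can leave the cell.

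The study measured nuclear RNA with 10x droplets in 4 libraries, each from the left eye of a different donor mouse. Donors 1 and 2 at 2.5 months were labelled wild type. Donors 1 and 2 at 5 months had no genotype in the labels, and neither strain nor sex is given in the sources used here. No group was treated. The title of the series speaks of human retina and its design text of an eye bank, while the samples are recorded as mouse. The replicates are separate animals. Class and subclass p-values rest on how differences between classes vary over the 4 mice, after differences between libraries are removed. All classes of a fit share that spread. Age p-values rest on the spread between mice, with 2 libraries per age.

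The libraries held 7404 to 9963 barcodes and 19608067 to 36320257 UMIs, and libraries shared between 0.0808% and 0.337% of the barcodes of the smaller one. Of 32326 barcodes 30361 nuclei were analysed, and 27911 fell in clusters that could be named from their markers. These were 8722 rod-like, 3104 cone-like, 2601 bipolar-like, 330 horizontal-like, 5764 amacrine-like, 1755 ganglion-like, 3215 Müller-like, 273 pigment-epithelium-like, 284 melanocyte-like, 1720 fibroblast-like and 143 endothelium-like nuclei, and the short names are used below. No cluster was named astrocyte. The labelled tissue is retina, yet melanocyte, fibroblast and pigment epithelium nuclei were found in every library. Levels are UMIs of a gene per 1000000 UMIs of a class (CPM), summed over the nuclei of that class in 1 library. Values are listed as 2.5-month donors 1 and 2, then 5-month donors 1 and 2.

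**Figure D1:**
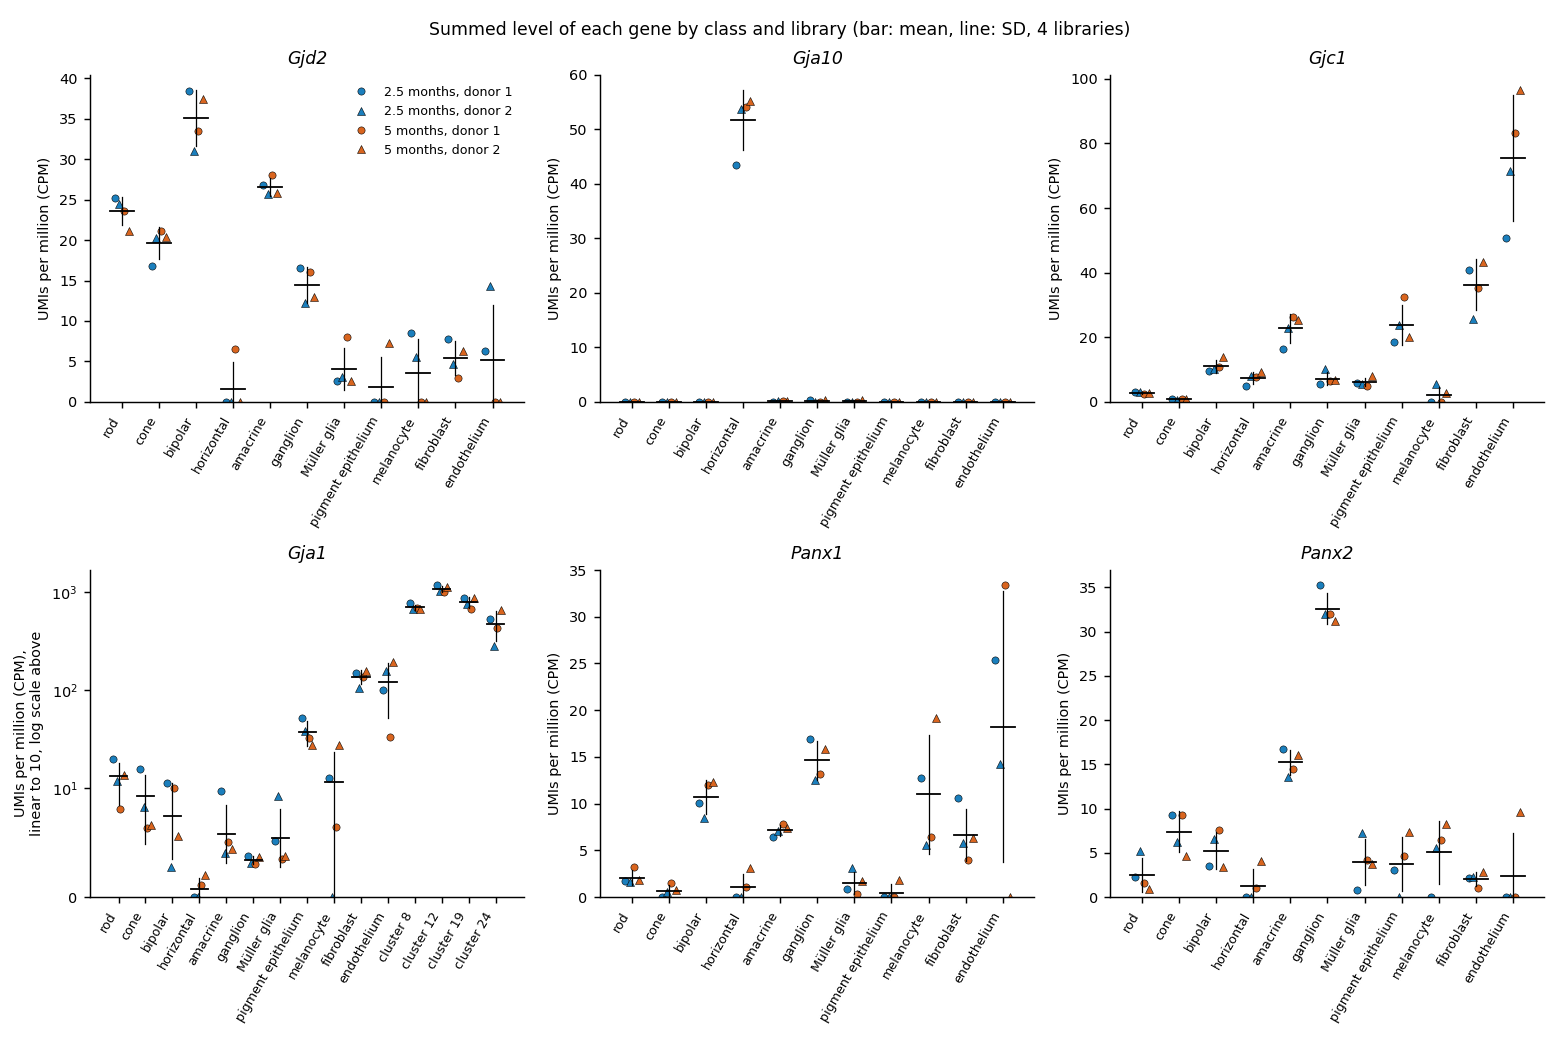
Level of each of the 6 genes (CPM) in each class. Points are libraries (blue 2.5 months, orange 5 months), bars are means and thin lines are SD over 4 libraries, and the Gja1 axis is linear to 10 and logarithmic above. Gja10 stands at 51.7 CPM in horizontal nuclei and near 0 elsewhere, Panx2 peaks at 32.6 CPM in ganglion nuclei, and Gja1 has means of 478 to 1079 CPM in 4 unnamed clusters.

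The genes lie apart from each other in the genome. In GENCODE M21 on mm10, the build of the deposited files, Gjd2 spans chr2:114009601-114013619 on the minus strand, 4019 bases of which 1140 are intronic. Gja10 is at chr4:32596960-32602760 and Gjc1 at chr11:102799579-102819700, both on the minus strand. Gja1 is at chr10:56377330-56402513 on the plus strand, Panx1 at chr9:15002128-15045478 on the minus strand and Panx2 at chr15:89059734-89073567 on the plus strand. The last gene overlaps the antisense gene 1810021B22Rik, which had 460 UMIs. The antisense gene A530058N18Rik overlaps the 5′ end of Gjd2 and was not analysed here. Genes of different length catch different numbers of nuclear reads, so levels are compared between classes and not between genes.

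One sequence is shown because Gjd2 was the member found in most neuron classes. Gjd2 was high in photoreceptors and bipolar nuclei, where the homeobox proteins Crx and Otx2 act, and also in amacrine nuclei. By subclass its level was highest in AII-like amacrine nuclei, at 180 CPM, while rod bipolar nuclei had 7.86 CPM. The sequence is the stretch of 250 bases before the start of Gjd2, chr2:114013620-114013869, minus strand, from RefSeq on GRCm38.p6. It is written 5′ to 3′, with capitals marking a match to the Crx and Otx2 core TAATCC on the opposite strand.
Gjd2: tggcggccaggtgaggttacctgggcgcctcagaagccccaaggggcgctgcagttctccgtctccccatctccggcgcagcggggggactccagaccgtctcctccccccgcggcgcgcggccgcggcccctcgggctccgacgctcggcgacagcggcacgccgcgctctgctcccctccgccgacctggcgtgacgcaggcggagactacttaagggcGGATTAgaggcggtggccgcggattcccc
The match ends 24 bases before the start site. Searched on both strands, TAATCC was found in 6.25% of 32851 such windows of the same length. The Onecut core ATTGAT, which occurs in 6.72% of them, was not in this window, and the windows of Gja10, Gja1 and Panx1 held neither. Gjc1 and Panx2 had no entry. A match of letters is a description and shows no binding.

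Over all 6 genes and 10 classes tested, 19 of 60 comparisons, each of 1 class with the mean of the rest, were higher and 15 were lower at an adjusted p under 0.05 (edgeR quasi-likelihood test, Benjamini-Hochberg adjustment over 14934 genes). Across all genes tested 26.7% of comparisons were higher and 22.3% lower. The counts are near that background, and what follows is which class carried which gene. The 19 include Gja10 in horizontal nuclei, the only class through which it could pass the filter on low counts. By class, the shares of all genes called higher and lower were 35% and 27.8% in rods, 31.8% and 27.1% in cones, 25.6% and 20.2% in bipolar nuclei, 17.5% and 17.8% in horizontal nuclei, 32% and 24.1% in amacrine nuclei and 33.6% and 28.4% in ganglion nuclei. In Müller nuclei they were 28.3% and 25.1%, in pigment epithelium 16.8% and 14.7%, in melanocytes 17% and 15.9% and in fibroblasts 30% and 21.6%. Endothelium had too few nuclei for the test and is only described.

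Gjd2, the neuronal connexin of electrical synapses, was found in photoreceptors, bipolar, amacrine and ganglion nuclei. Its level in bipolar nuclei was 38.4, 31.0, 33.5 and 37.5 CPM (35.1 ± 3.45, SD, n = 4). In amacrine nuclei it was 26.9, 25.7, 28.0 and 25.8 CPM (26.6 ± 1.10, SD, n = 4). Rods and cones followed. Rod nuclei had 25.2, 24.4, 23.6 and 21.1 CPM (23.6 ± 1.75, SD, n = 4), and cone nuclei 16.7, 20.3, 21.1 and 20.3 CPM (19.6 ± 1.95, SD, n = 4). Ganglion nuclei had 16.5, 12.2, 16.1 and 12.9 CPM (14.4 ± 2.21, SD, n = 4). In this order of 5 classes the library ranges of neighbours did not overlap, and neighbouring pairs were not tested.

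Against the mean of the other classes, Gjd2 was higher in bipolar nuclei by 2.19 ± 0.19 on the log2 scale (SE, edgeR adjusted p = 5.55e-14), in amacrine nuclei by 1.71 ± 0.17 (edgeR adjusted p = 2.80e-12) and in rods by 1.39 ± 0.20 (edgeR adjusted p = 4.24e-08). Cones were higher by 1.17 ± 0.22 (edgeR adjusted p = 1.10e-05) and ganglion nuclei by 0.85 ± 0.20 (edgeR adjusted p = 0.000325). The calls for rods, cones and ganglion nuclei depended on the reference. Against the summed nuclei of all other classes, in which rods and amacrine cells weigh most, rods differed by 0.25 (edgeR adjusted p = 0.0676), cones by 0.02 (edgeR adjusted p = 0.911) and ganglion nuclei by -0.26. Fibroblast, Müller, melanocyte and pigment epithelium nuclei had means of 5.42, 4.07, 3.51 and 1.83 CPM with overlapping libraries. Horizontal nuclei had 0, 0, 6.5 and 0 CPM, and Gjd2 was called lower there (log2 fold change -1.71 ± 0.58, edgeR adjusted p = 0.0168). That call was lost without 2.5-month donor 1 (-1.47, edgeR adjusted p = 0.0835) or donor 2 (-1.49, edgeR adjusted p = 0.0743).

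Free RNA from lysed cells can enter droplets of other cells, and 18 rod genes were therefore set beside Gjd2. In cones the summed rod genes stood at 40.2% to 45.4% of the rod level over the libraries, and Gjd2 at 66.5% to 96.1%. In bipolar nuclei the rod genes stood at 14.9% to 20.5% and Gjd2 at 127% to 177%. Amacrine nuclei had rod genes at 8.01% to 14.3% and Gjd2 at 105% to 122%. In these classes Gjd2 was above what the rod genes showed. In Müller nuclei the 2 ranges overlapped, with rod genes at 13% to 19.3% and Gjd2 at 10.2% to 34.0%. Fibroblasts were alike in this, with 13.5% to 19.6% and 12.5% to 30.8%. The part of free RNA in the low levels of those classes was not tested.

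**Figure D2:**
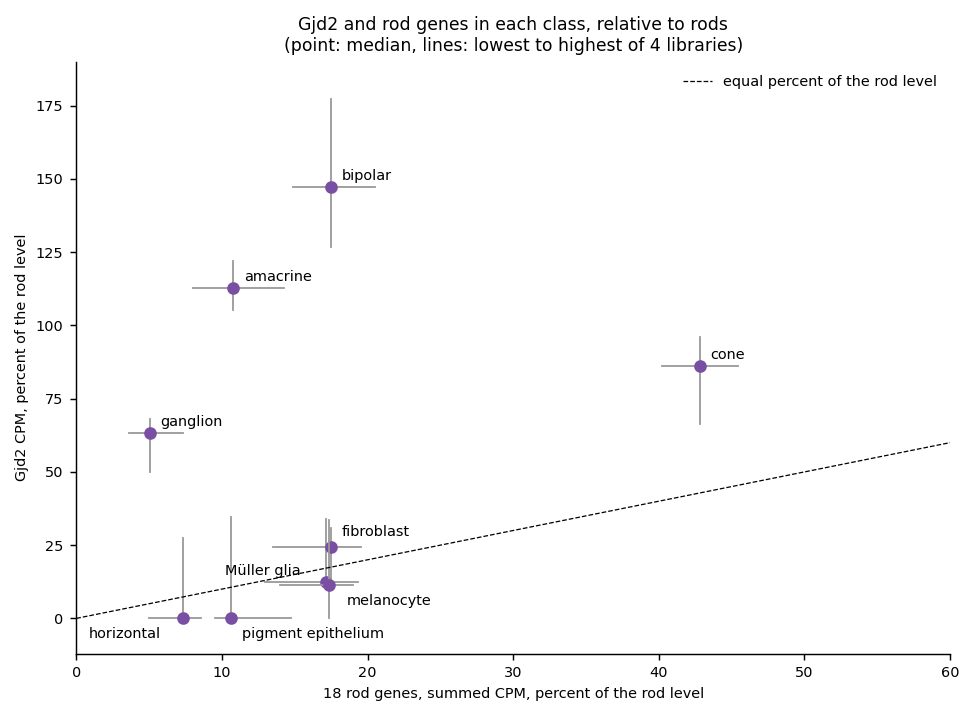
Gjd2 level against the summed level of 18 rod genes, both in percent of the rod level of the same library. Points are medians and lines run from the lowest to the highest of 4 libraries for each class, and the dashed line marks equal percentages. Bipolar, amacrine, cone and ganglion nuclei lie above the line in every library, while Müller and fibroblast ranges cross it.

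Within the amacrine class, Gjd2 was concentrated in the AII-like cluster, the narrow-field cells that pass rod signals on to cone bipolar cells. Levels there were 197, 151, 182 and 189 CPM (180 ± 20.1, SD, n = 4, 377 UMIs), each higher than any value of another amacrine subclass. GABAergic amacrine nuclei had 17.6 ± 2.33 CPM and glycinergic amacrine nuclei other than AII 10.1 ± 2.26 CPM (SD, n = 4). The AII-like level was 10.2 times that of GABAergic nuclei (9.43 to 11.3 over libraries) and 17.8 times that of the glycinergic nuclei (16.1 to 20.8). VGLUT3 amacrine nuclei had a mean of 11.4 CPM and starburst nuclei of 4.31 CPM. Against the mean of the other amacrine subclasses Gjd2 was higher in AII-like nuclei by 4.13 ± 0.14 on the log2 scale (edgeR adjusted p = 2.75e-20). Glycinergic nuclei were lower (log2 fold change -1.16 ± 0.25, edgeR adjusted p = 0.000470), as were starburst nuclei (-2.24 ± 0.39, edgeR adjusted p = 2.36e-05).

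At least 1 Gjd2 UMI was seen in 243 of 451 AII-like nuclei, or 53.9%, at a median depth of 4341 UMIs. Müller nuclei, which stand in for cells without the gene, had 1.24% at a median depth of 2811 UMIs. After every nucleus was thinned to 1000 UMIs the AII-like share was 15.6% (12.8% to 18.2% over libraries) and the Müller share 0.375%. For GABAergic nuclei the unthinned share of 8.23% became 1.43%. Rods went from 3.04% to 2.50%, with 2633 shallower rods left out. In horizontal nuclei, at a median depth of 7111 UMIs, 5 of 330 (1.52%) had a Gjd2 UMI before thinning and 0 after it. Shares and floors cover counting error only.

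Among bipolar cells, Gjd2 was highest in ON cone bipolar nuclei, the type that receives AII coupling. Their levels were 86.1, 66.0, 83.0 and 71.0 CPM (76.5 ± 9.57, SD, n = 4). OFF cone bipolar nuclei had 20.2, 21.0, 15.7 and 32.2 CPM (22.3 ± 6.99, SD, n = 4). Rod bipolar nuclei had 9.20, 6.19, 8.44 and 7.61 CPM (7.86 ± 1.29, SD, n = 4). The 3 subclasses did not overlap in any library. ON cone bipolar nuclei had 3.43 times the OFF cone level (2.21 to 5.28 over libraries) and 9.74 times the rod bipolar level (9.33 to 10.7). Against the mean of the other bipolar subclasses they were higher by 2.42 ± 0.18 on the log2 scale (edgeR adjusted p = 1.35e-07), and rod bipolar nuclei were lower (-2.34 ± 0.26, edgeR adjusted p = 2.94e-06). The 3 ON cone clusters, 17, 28 and 35, had means of 83.9, 74.7 and 66.8 CPM. They were named because Grm6 and Isl1 were raised in them, and among bipolar clusters they raised 4, 3 and 2 of the 9 ON cone markers. Without cluster 35 the ON cone rise of Gjd2 was 2.48 ± 0.19 on the log2 scale (edgeR adjusted p = 1.29e-07). Of ON cone nuclei 20.1% held a Gjd2 UMI, and 7.97% after thinning, against 2.68% and 0.514% of rod bipolar nuclei.

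Over both subclass maps 6 comparisons of a member were higher and 6 lower, of 21 that passed the filter on low counts. The background over all genes was 14.2% higher and 12.2% lower. By subclass it was 11.9% and 10.6% for OFF cone, 9.29% and 7.18% for ON cone and 14.8% and 14.9% for rod bipolar nuclei. Among amacrine subclasses it was 13.7% and 15.6% for AII-like, 21.2% and 13.1% for GABAergic, 16.7% and 12.7% for glycinergic, 15.2% and 16.0% for starburst and 10.3% and 7.37% for VGLUT3 nuclei. Gja1 and Gja10 passed the filter in neither map, Gjc1 and Panx2 passed it only among amacrine subclasses and Panx1 only among bipolar subclasses. Panx1 could pass it there through OFF cone nuclei alone, so its OFF cone and ON cone calls in these counts are descriptions.

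**Figure D3:**
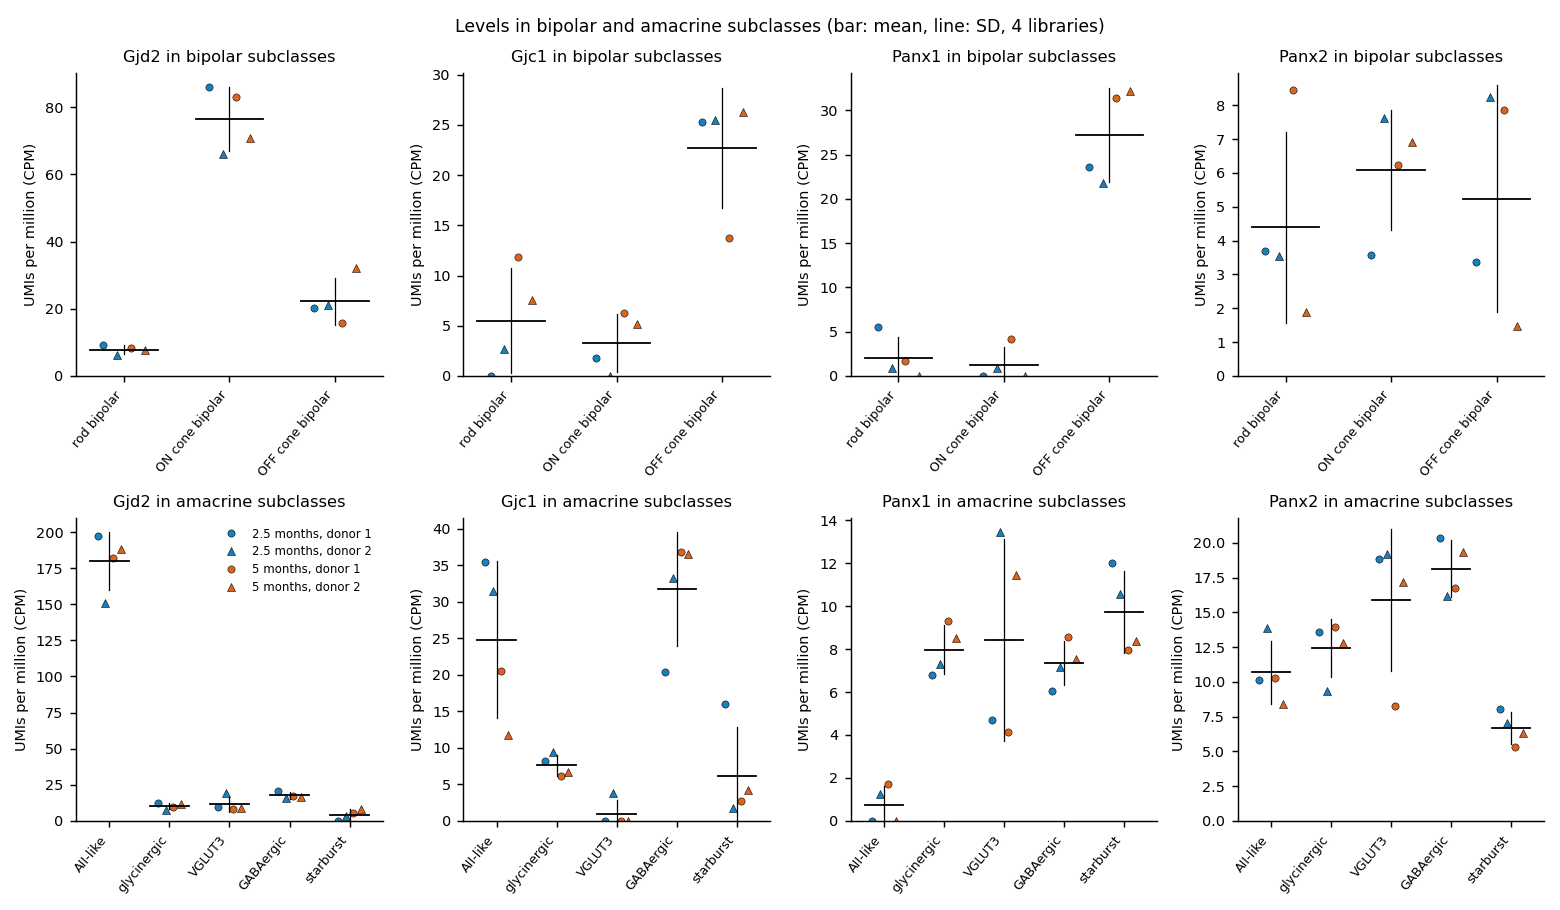
Levels of Gjd2, Gjc1, Panx1 and Panx2 (CPM) in bipolar subclasses (upper row) and amacrine subclasses (lower row). Points are libraries, bars are means and lines are SD over 4 libraries. Gjd2 reaches 180 CPM in AII-like amacrine and 76.5 CPM in ON cone bipolar nuclei, and Panx1 27.2 CPM in OFF cone bipolar nuclei.

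Gja10, a connexin of horizontal cells, was found nearly only in horizontal nuclei, which held 133 of its 142 UMIs among the nuclei analysed. Levels there were 43.4, 53.8, 54.2 and 55.2 CPM (51.7 ± 5.53, SD, n = 4), so all 4 libraries were alike. Amacrine nuclei had 4 UMIs, ganglion nuclei 3 and Müller nuclei 1, and 1 more lay in an unnamed cluster. No UMI was found in rod, cone, bipolar, fibroblast, melanocyte, pigment epithelium or endothelium nuclei. Against a floor of 3 UMIs over each class, the horizontal level was at least 204-fold higher than in rods, 156-fold than in bipolar nuclei, 136-fold than in cones and 90.0-fold than in fibroblasts. Smaller classes set weaker bounds, at least 23.2-fold for pigment epithelium, 16.7-fold for melanocytes and 7.0-fold for endothelium. The pooled ratio was 309 to ganglion nuclei (95% counting interval 103 to 1517) and 377 to amacrine nuclei (144 to 1402).

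Because 6 tested classes were at 0, the fitted fold against their mean depends on the prior count and is not a bound. Against the summed nuclei of all other classes the difference of Gja10 in horizontal nuclei was 9.51 on the log2 scale. Gja10 could pass the filter on low counts through horizontal nuclei alone, so this value is a description and not a test. A Gja10 UMI was seen in 103 of 330 horizontal nuclei, 31.2% at a median depth of 7111 UMIs, and in 0.0694% of amacrine nuclei at a median depth of 4350.5 UMIs. Thinning to 1000 UMIs left 4.55% (3.15% to 10.3% over libraries).

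Gjc1, a connexin also known from heart and vessel walls, was spread over connective, vascular and several neuronal classes. Endothelial nuclei had 50.7, 71.5, 83.4 and 96.5 CPM, from 28 UMIs in all. Fibroblast nuclei had 40.9, 25.6, 35.4 and 43.2 CPM (36.3 ± 7.83, SD, n = 4), and pigment epithelium 18.5, 23.7, 32.5 and 20.1 CPM (23.7 ± 6.27, SD, n = 4). Amacrine nuclei overlapped the pigment epithelium with 16.5, 23, 26.4 and 25.2 CPM (22.8 ± 4.43, SD, n = 4). Against the mean of the other classes Gjc1 was higher in fibroblasts by 2.41 ± 0.16 on the log2 scale (edgeR adjusted p = 9.49e-18), in amacrine nuclei by 1.86 ± 0.13 (edgeR adjusted p = 5.99e-17) and in pigment epithelium by 1.82 ± 0.31 (edgeR adjusted p = 3.94e-06). Photoreceptors were low. Cones had 0.803 CPM (log2 fold change -3.55 ± 0.42, edgeR adjusted p = 7.26e-10) and rods 2.80 CPM (-1.56 ± 0.28, edgeR adjusted p = 4.51e-06). Bipolar nuclei as a class had 11.1 ± 2.01 CPM and were higher by 0.72 (edgeR adjusted p = 0.00169), a call that turned to -0.073 against the summed nuclei.

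The amacrine level of Gjc1 came mainly from GABAergic nuclei, with 20.4, 33.2, 36.9 and 36.6 CPM (31.8 ± 7.77, SD, n = 4), a rise of 2.44 ± 0.24 on the log2 scale over the mean of the other subclasses (edgeR adjusted p = 1.06e-09). AII-like nuclei had 35.4, 31.5, 20.6 and 11.8 CPM, lower in both 5-month libraries, which was not tested, and were called higher by 1.81 ± 0.38 (edgeR adjusted p = 0.000368), which became -0.017 against the summed amacrine nuclei. VGLUT3 nuclei had only 2 UMIs, a pooled ratio of 22.5 for GABAergic over VGLUT3 nuclei (95% counting interval 6.20 to 186). The GABAergic name depended on the resolution. At the finer clustering only clusters of 231 and 188 nuclei received it, compared with 3003 nuclei here. Within the GABAergic nuclei single clusters carried the gene. Cluster 14 had 73.6, 104, 113 and 102 CPM (98.3 ± 17.2, SD, n = 4) and cluster 16 had 33.2, 47.9, 78.6 and 78.1 CPM (59.4 ± 22.6, SD, n = 4). Cluster 14 was also the GABAergic cluster with the most Gjd2, at 35.8 CPM.

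Bipolar cells showed a similar concentration of Gjc1. OFF cone bipolar nuclei had 25.3, 25.5, 13.8 and 26.3 CPM (22.7 ± 6.0, SD, n = 4), above the 1.79, 0, 6.22 and 5.19 CPM of ON cone bipolar nuclei in every library. The pooled OFF over ON ratio was 9.49 (95% counting interval 4.38 to 24.4). Of the 3 OFF clusters, cluster 31 stood out with 106, 82.0, 50.4 and 103 CPM (85.2 ± 25.5, SD, n = 4). The gene did not pass the filter on low counts among bipolar subclasses. Without that filter OFF cone nuclei were higher by 2.66 ± 0.34 on the log2 scale (edgeR adjusted p = 1.69e-13). That p-value cannot be set beside those of the filtered fit. For Gjd2 in ON cone nuclei the edgeR adjusted p was 6.68e-30 without the filter and 1.35e-07 with it. Against the summed other bipolar subclasses the Gjc1 difference of OFF cone nuclei was 2.62 ± 0.44.

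**Figure D4:**
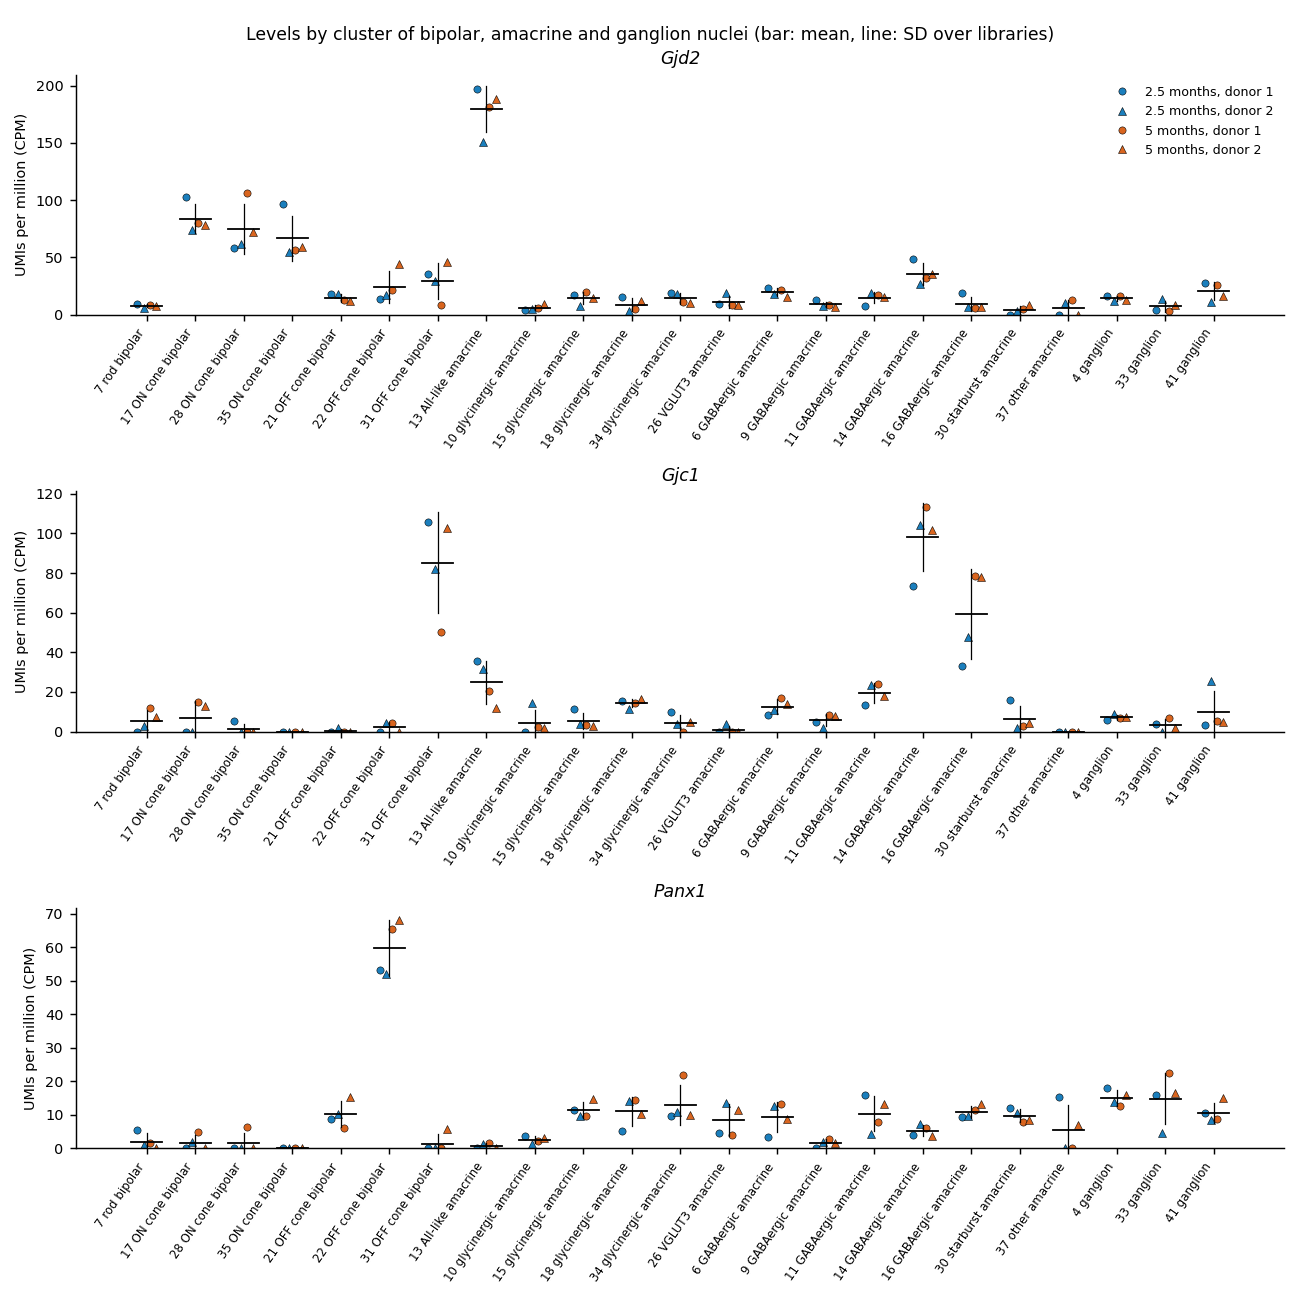
Levels of Gjd2, Gjc1 and Panx1 (CPM) in each cluster of bipolar, amacrine and ganglion nuclei. Points are libraries, bars are means and lines are SD over libraries. Gjc1 stands at 98.3 CPM in GABAergic cluster 14 and at 85.2 CPM in OFF cone bipolar cluster 31, and Panx1 at 59.7 CPM in OFF cone bipolar cluster 22.

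Gja1, the connexin of astrocytes, connective tissue and pigmented epithelia, lay mostly in 4 clusters that could not be named. Of its 6302 UMIs in the nuclei analysed, 4889 (77.6%) were in these clusters, which made up 6.04% of nuclei. Cluster 12 had 1171, 1016, 998 and 1131 CPM (1079 ± 85.1, SD, n = 4). Cluster 19 had 874, 759, 667 and 882 CPM, with only 11 nuclei in 2.5-month donor 2. Clusters 8 and 24 had means of 699 ± 48.5 and 478 ± 159 CPM (SD, n = 4). The first 3 of these clusters, 12, 19 and 8, raised 9, 8 and 9 of the 9 melanocyte markers, with marker sums of 10935 to 17417 CPM against 23296 to 32228 CPM in the melanocyte class. None of them was named, since other genes led them. Smooth muscle genes (Myh11, Acta2, Tagln) led cluster 8, the genes leading cluster 12 held Zic1, a marker of ciliary or iris epithelium, and the bicarbonate transporter gene Slc4a4 led cluster 19. Cluster 24 raised 7 of 10 Müller markers and 5 of 7 markers of ciliary or iris epithelium, and its leading genes held the anion exchanger gene Slc26a4 and the fibroblast marker Fbln1. Its summed Müller markers were 4669 to 8452 CPM, against 7628 to 11477 CPM in the Müller class. The name of cluster 24 depended on the resolution. At the finer clustering a cluster of 393 nuclei, likewise led by 9330185C12Rik and Slc26a4, raised 8 of 8 fibroblast markers and was named fibroblast.

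Among named classes fibroblasts had 152, 106, 137 and 156 CPM of Gja1 (138 ± 22.5, SD, n = 4), and were higher than the mean of the other classes by 4.03 ± 0.15 on the log2 scale (edgeR adjusted p = 8.48e-28). The 7 astrocyte markers, among them Pdgfra of the fibroblast list, summed to 2060 to 3978 CPM in fibroblasts and to 69.6 to 107 CPM in Müller nuclei. At the finer clustering a cluster of 876 nuclei raised 8 of 8 fibroblast markers but stayed unnamed, as its leading genes held the astrocyte marker Igfbp5. The part of astrocytes in the fibroblast level of Gja1 was not tested. Cluster 12 had 7.84 times the level of the fibroblasts (7.26 to 9.59 over libraries). Within the fibroblasts cluster 23, in which 7 of 9 melanocyte markers were raised, had 373 ± 56.4 CPM, and clusters 25 and 5 had 85.6 and 82.3 CPM. Pigment epithelium had 52.5, 38, 32.5 and 27.4 CPM (37.6 ± 10.8, SD, n = 4), higher by 2.10 ± 0.33 (edgeR adjusted p = 1.22e-06). That call was lost when unnamed clusters entered as classes of their own (0.70, edgeR adjusted p = 0.0893). Endothelial nuclei varied from 33.4 to 193 CPM on 49 UMIs.

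Müller glia, the main glia of the retina, had little Gja1 in the nuclei named as such. Levels were 5.11, 9.27, 3.53 and 3.78 CPM (5.42 ± 2.66, SD, n = 4). This was below the mean of the other classes (log2 fold change -0.93 ± 0.29, edgeR adjusted p = 0.00644), and fibroblasts had 25.4 times as much (11.4 to 41.1 over libraries). The lower call was lost without 5-month donor 1 (-0.76, edgeR adjusted p = 0.0716) or donor 2 (-0.59, edgeR adjusted p = 0.229). Rods had 19.8, 11.8, 8.13 and 13.5 CPM, or 2.45 times the Müller level (1.27 to 3.87). The summed melanocyte markers in rods were 681, 504, 424 and 564 CPM, in the same order of libraries as Gja1, and in Müller nuclei 252 to 396 CPM. The part of free RNA from pigmented cells in the rod level was not tested. A Gja1 UMI was seen in 91.6% of nuclei of cluster 12 and 1.40% of Müller nuclei, at median depths of 3202 and 2811 UMIs. Thinned to 1000 UMIs, these shares were 61.8% and 0.562%. Horizontal nuclei had 0, 0, 1.08 and 2.05 CPM (log2 fold change -2.81 ± 0.68, edgeR adjusted p = 0.000857; -0.69 and 0.234 with doublets kept), and ganglion nuclei 3.43 ± 0.381 CPM (-1.48 ± 0.30, edgeR adjusted p = 2.57e-05).

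Panx1, a channel that releases ATP, was highest in ganglion and bipolar nuclei among neurons. Ganglion nuclei had 17.0, 12.5, 13.2 and 15.8 CPM (14.6 ± 2.11, SD, n = 4), higher than the mean of the other classes by 2.40 ± 0.19 on the log2 scale (edgeR adjusted p = 3.58e-15). Bipolar nuclei had 10.0, 8.51, 12 and 12.3 CPM (10.7 ± 1.78, SD, n = 4), higher by 1.79 ± 0.24 (edgeR adjusted p = 2.28e-08), and amacrine nuclei 7.18 ± 0.588 CPM, higher by 1.17 ± 0.21 (edgeR adjusted p = 4.46e-06), or by 0.23 against the summed nuclei (edgeR adjusted p = 0.238). The ganglion and bipolar libraries did not overlap. Melanocytes had 12.7, 5.58, 6.47 and 19.2 CPM on 12 UMIs, a range that spans that of ganglion nuclei, and were called higher by 1.83 ± 0.51 (edgeR adjusted p = 0.00400). Fibroblasts, at 6.67 ± 2.80 CPM, were called higher by 0.84 ± 0.31 (edgeR adjusted p = 0.0230), a call that turned negative against the summed nuclei. Endothelial nuclei, not tested, varied from 0 to 33.4 CPM on 7 UMIs. Cones had 0.693 CPM (log2 fold change -2.38 ± 0.54, edgeR adjusted p = 0.000184), and Müller nuclei 1.5 CPM (-1.33 ± 0.43, edgeR adjusted p = 0.00768), a call lost without 5-month donor 1 (-0.88, edgeR adjusted p = 0.0966).

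The bipolar signal of Panx1 came from OFF cone bipolar nuclei, which had 23.6, 21.8, 31.4 and 32.2 CPM (27.2 ± 5.32, SD, n = 4, 81 UMIs). ON cone bipolar nuclei had 3 UMIs and rod bipolar nuclei 5. The pooled OFF over ON ratio was 24.2 (95% counting interval 8.0 to 120), and OFF over rod bipolar 14.5 (5.97 to 45.9). Among bipolar subclasses Panx1 could pass the filter on low counts through OFF cone nuclei alone. The difference of OFF cone nuclei from the mean of the other bipolar subclasses, 4.07 ± 0.46 on the log2 scale (SE), is therefore a description. Cluster 22 held 68 of the 81 UMIs, with 53.2, 52.0, 65.5 and 68.2 CPM (59.7 ± 8.31, SD, n = 4). The OFF clusters rich in Gjc1 and in Panx1 were thus different ones, 31 and 22. In AII-like nuclei, rich in Gjd2, Panx1 had 2 UMIs, and GABAergic nuclei had 8.21 times the pooled level (95% counting interval 2.23 to 68.6).

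Panx2, the other pannexin of neurons, was highest in ganglion nuclei, with 35.2, 32, 32 and 31.2 CPM (32.6 ± 1.79, SD, n = 4). They were higher than the mean of the other classes by 2.96 ± 0.17 on the log2 scale (edgeR adjusted p = 2.48e-20). Amacrine nuclei followed with 16.8, 13.6, 14.5 and 16.0 CPM (15.2 ± 1.44, SD, n = 4), higher by 1.59 ± 0.18 (edgeR adjusted p = 2.49e-10). Ganglion nuclei had 2.14 times the amacrine level of Panx2 (1.94 to 2.35 over libraries) and 2.04 times that of Panx1 (1.69 to 2.65). The 3 ganglion clusters had 35.6, 32.5 and 31.5 CPM of Panx2. Cones had 7.39 CPM and bipolar nuclei 5.27 CPM, neither of which passed the test, and the remaining classes had 5.07 CPM or less. Among amacrine cells GABAergic nuclei had 18.1 ± 2.03 CPM, higher by 0.69 ± 0.16 (edgeR adjusted p = 0.00116), and starburst nuclei 6.67 ± 1.15 CPM (-0.98 ± 0.36, edgeR adjusted p = 0.0482). The starburst call was lost when any 1 library was left out (edgeR adjusted p = 0.0814 to 0.166) and with DESeq2 (adjusted p = 0.106).

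Age was compared with 2 libraries per age in each class. None of 27 tests of a member in 9 classes passed an adjusted p of 0.05 in edgeR, and none had an unadjusted p under 0.05. DESeq2 likewise called 0 of 22, with 0 at an unadjusted p under 0.05. Across all genes and classes 0.203% of tests passed in edgeR. That share was 0.0956% in Müller, 0.0325% in amacrine, 0.0612% in bipolar, 0.0611% in cone, 0.00858% in fibroblast, 0.0518% in ganglion, 0.0826% in horizontal, 0.049% in rod and 0.271% in melanocyte nuclei, and 3.02% in pigment epithelium. The largest change was of Gja1 in Müller nuclei (log2 fold change -0.98 ± 0.51, edgeR adjusted p = 0.797), followed by Gja1 in cones (-0.81 ± 0.46, edgeR adjusted p = 0.852). For Gjd2 the change in amacrine nuclei was 0.01 ± 0.19 and in bipolar nuclei 0.01 ± 0.23 on the log2 scale, and for Gja10 in horizontal nuclei 0.29 ± 0.32. In 16 of the 27 the ages overlapped, in 6 both 5-month libraries were higher and in 5 both were lower. How often ages separate in this way over all genes was not computed, so these counts show nothing particular to the members. The 2.5-month files were written by Cell Ranger 7.1.0 and the 5-month files by 4.0.0, and an effect of the version cannot be told apart from one of age.

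**Figure D5:**
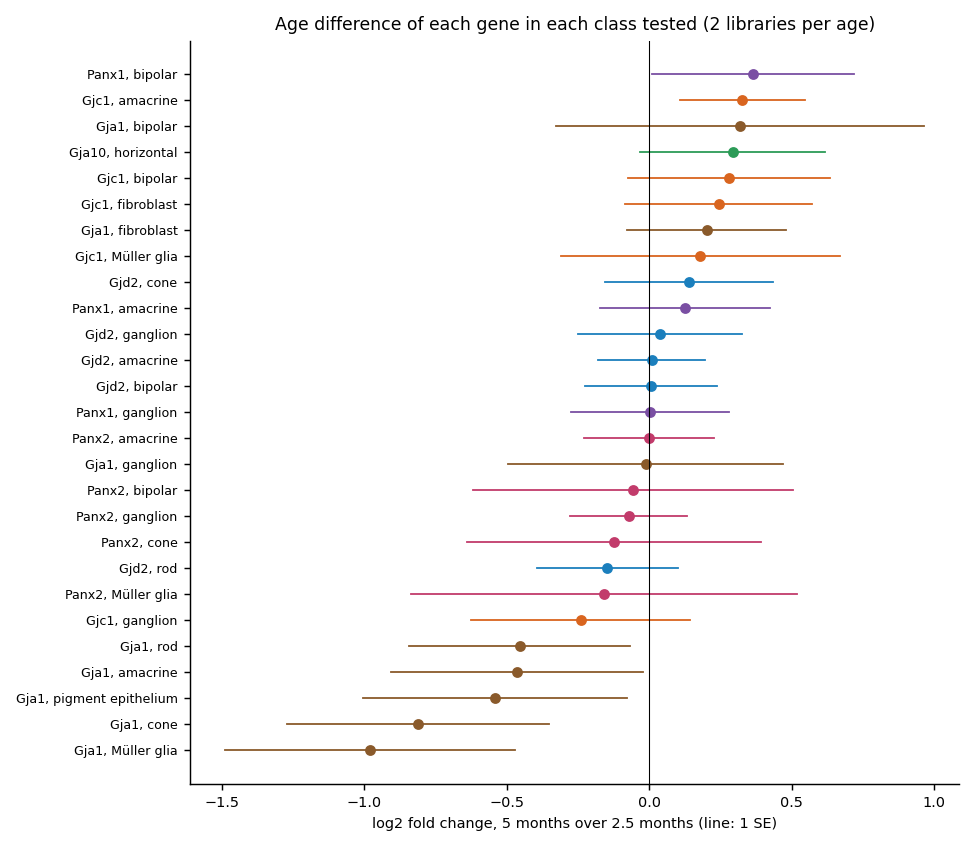
Fitted log2 fold change at 5 months over 2.5 months for each gene in each class where it was tested, with 2 libraries per age. Points are estimates, lines are 1 SE and colours mark the genes. Values run from -0.98 for Gja1 in Müller nuclei to 0.36 for Panx1 in bipolar nuclei, and none passed the test.

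Other genes of the junction were read from lists. Of 17 other connexins and pannexin 3 only 3 passed the filter on low counts, Gjb2, Gjb6 and Gjc3, with 221, 162 and 121 UMIs in the classes. They were highest in melanocytes and could pass through that class alone, so their levels there are a description. In fibroblasts 2 of the 3, Gjb2 and Gjc3, were called higher as well and 0 lower (all genes as above). Gjb2, an epidermal and cochlear connexin, had 90.6 to 211 CPM in melanocytes (148 ± 49.4, SD, n = 4), Gjb6 100 to 203 CPM (132 ± 48.4) and the glial connexin Gjc3 97.5 to 132 CPM (112 ± 15.8). The 12 scaffold and trafficking genes were all tested. In bipolar nuclei 6 were higher and 4 lower (all genes as above), with a median log2 fold change of 0.19. Tjp1, a scaffold protein that binds connexins, had 725 ± 116 CPM in horizontal nuclei (1.59 ± 0.09 on the log2 scale, edgeR adjusted p = 1.08e-20) and was highest in rods, at 858 ± 92.3 CPM. Cgnl1, a tight-junction protein, had 286 ± 40.3 CPM in fibroblasts (4.87 ± 0.09, edgeR adjusted p = 1.42e-38). Tjp3, a gene of the same family as Tjp1, reached 6.33 ± 1.32 CPM in bipolar nuclei, and Cav1, which encodes the caveolae protein caveolin, 48.5 ± 31.8 CPM in fibroblasts, while its highest level was 296 ± 23.5 CPM in Müller nuclei.

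Of 18 regulators of electrical coupling 16 were tested. In amacrine nuclei 11 were higher and 2 lower (all genes as above), with a median log2 fold change of 0.93 against 0.01 over all genes. In ganglion nuclei the counts were also 11 and 2 (all genes as above), with a median of 0.62. The dopamine receptor gene Drd2 had 89.3 ± 10.0 CPM in bipolar nuclei (4.79 ± 0.16, edgeR adjusted p = 3.84e-29). Drd1, the receptor whose activation raises cyclic AMP, had 55.5 ± 12.9 CPM in horizontal nuclei (3.12 ± 0.24, edgeR adjusted p = 2.31e-15) and 63.1 ± 11.4 CPM in bipolar nuclei (3.05 ± 0.16, edgeR adjusted p = 2.14e-21). In ganglion nuclei the kinase gene Camk2a had 70.3 ± 11 CPM (3.60 ± 0.13, edgeR adjusted p = 3.07e-27) and the adenosine receptor gene Adora1 55.3 ± 14.0 CPM (2.68 ± 0.13, edgeR adjusted p = 7.78e-23).

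ATP release and purine signalling was read from 16 genes, of which 9 were tested. In ganglion nuclei, where both pannexins were highest among neurons, 4 were higher and 2 lower (33.6% and 28.4% of all genes), with a median log2 fold change of 0.69 against 0.0033 over all genes. The ectonucleotidase gene Entpd3, whose product breaks down ATP outside the cell, had 21.5 ± 3.13 CPM there (3.48 ± 0.19, edgeR adjusted p = 2.39e-21). In fibroblasts 5 were higher and 2 lower (30% and 21.6% of all genes), with a median of 1.96 against 0.022 over all genes, and the related gene Entpd1 had 21.6 ± 8.72 CPM (3.55 ± 0.31, edgeR adjusted p = 1.33e-13). Calhm2, of a family of ion and ATP channels, had 33.5 ± 6.10 CPM in fibroblasts (2.47 ± 0.19, edgeR adjusted p = 2.59e-15). The ATP receptor gene P2rx7 and the ADP receptor gene P2ry1 were called there as well, at 3.95 ± 3.55 and 8.90 ± 3.93 CPM, and P2rx7 was highest in melanocytes, at 25.1 ± 8.27 CPM.

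The genes most like each member were found by Pearson's r of log2(CPM + 1) over the means of 10 classes, among 13964 genes, as a description. Closest to Gjd2 were Sncb (0.987), which encodes beta-synuclein, Gphn (0.974), which encodes the synaptic scaffold gephyrin, Smg9 (0.959), Lrtm2 (0.952) and Zfp428 (0.938). To Gja10 they were Gm28182 (0.998), Bsnd (0.996), which encodes a chloride channel subunit, AC119998.5 (0.995), Gm45462 (0.993) and 2810471M01Rik (0.991), all highest in horizontal nuclei. The genes closest to Gjc1 were the potassium channel gene Kcnt2 (0.916), Gm32036 (0.888), Cyp7b1 (0.867), 4930590L20Rik (0.866) and Igsf10 (0.855). Those of Gja1 were also highest in fibroblasts: the fatty acid receptor gene Cd36 (0.968), Gm44710 (0.966), Igfbp5 (0.964), Pcolce (0.947) and Thbs1 (0.945). Panx1 was closest to Ampd3 (0.918), which encodes an AMP deaminase, 2410089E03Rik (0.906), Gfod1 (0.906), Socs2 (0.900) and Tiprl (0.899). Panx2 was closest to Nell1os (0.960), Enpp5 (0.947), the sodium channel subunit gene Scn3b (0.930), Slc27a4 (0.925) and Cacng5 (0.911), all highest in ganglion nuclei. The classes share libraries, so nothing on shared function follows from these values.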

How the data were processed

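The authors deposited UMI counts per gene and barcode, made with Cell Ranger on mm10 per the submitters' processing notes, in version 7.1.0 at 2.5 months and 4.0.0 at 5 months per the file headers. Whether intronic reads were counted is not given in the sources used here. Barcodes with fewer than 300 genes or over 5% mitochondrial UMIs were dropped, and the 6% with the highest doublet scores were removed per library. The doublet caller's own threshold marked 1 to 784 barcodes per library and was not used. Nuclei were clustered with scanpy 1.11.5 and leidenalg 0.10.2 (2000 variable genes without the listed genes, 30 components, 15 neighbours, resolution 1, 45 clusters) and named from marker lists. For each class and library the counts were added up, and the sums were tested with edgeR 4.0.16 in R 4.3.3 (TMM, filterByExpr, quasi-likelihood test, library as block), each class with at least 20 nuclei in every library against the mean of the others. In such a contrast a gene at 0 in a class has no finite estimate there, as for 10.8% of genes in the class map, and cannot be called lower. Age was fitted per class without a block. The scripts were tested on simulated counts.

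The members, marker lists and gene lists were chosen with earlier results of these data known. Named were every member, other connexins called higher with at least 5 CPM in their highest class, up to 5 genes of each other list with the largest called rise in a class where a member was highest, and the 5 genes most alike each member among genes with at least 10 CPM in some class. A result of the scaffold list is not reported here. Alternatives were RLE scaling, no filter, DESeq2 1.42.0, no doublet removal, resolution 2 (class map only), ON cone bipolar nuclei without cluster 35, summed nuclei as reference, thinned sums, a replicate block and leaving out each library.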

Additional observations from a re-analysis of the deposited data

Results flagged for a closer look

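The Gjd2 levels of the 2 ages did not overlap in either photoreceptor class, and their order was opposite in the 2 classes. In cones both 5-month libraries were higher (log2 fold change 0.14 ± 0.30, edgeR adjusted p = 0.952), and in rods both were lower (-0.15 ± 0.25, edgeR adjusted p = 0.926). The closest libraries in cones were 2.5-month donor 2 at 20.28 CPM and 5-month donor 2 at 20.33 CPM. In rods they were 2.5-month donor 2 at 24.44 CPM and 5-month donor 1 at 23.58 CPM. Neither change passed the test, both were smaller than their SE, and the difference between the classes was not tested.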

How the results depend on the processing

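Against the summed nuclei of the other classes, 12 comparisons of a member were higher and 27 lower, compared with 19 and 15 in the report, and among subclasses 14 were lower compared with 6. Of all genes 13.1% to 34.3% were higher and 20.9% to 39.3% lower by class in that setting (14.7% to 28.4% lower in the report), and 9.22% to 18.2% were lower by subclass (7.18% to 16.0% in the report). In that setting Gjc1 in bipolar nuclei turned to -0.073, Panx1 in fibroblasts to -0.084, Gjd2 in ganglion nuclei to -0.26 and Gjc1 in AII-like nuclei to -0.017 on the log2 scale. A reference weighted by nuclei and not by class is part of that setting's construction. Leaving out each library in turn gave 18 to 19 higher and 6 to 14 lower calls in the class map, and 6 to 7 higher and 4 to 6 lower calls among subclasses. The lowest, 6, came without 5-month donor 2, where Gjd2 and Panx1 were at 0 in the remaining pigment epithelium and their contrasts had no finite estimate. Of the 34 class calls 17 kept their direction and side of the threshold in every setting run for that map with a finite estimate, and of the 12 subclass calls 9 did. The finer clustering was run for the class map only, and amacrine subclass names differed there. Only clusters of 231 and 188 nuclei were named GABAergic, compared with 3003 nuclei in the report. The AII-like name also went to a cluster of 158 nuclei led by Htr2c. In the report a cluster of 158 nuclei led by that gene had no subclass name, and 4 of its nuclei held a Gjd2 UMI. Panx2 in starburst nuclei was lost in 7 settings and Panx1 in ON cone bipolar nuclei in 4, among them leaving out cluster 35 (-2.24, edgeR adjusted p = 0.094), which was chosen after seeing the data. Relative log expression scaling moved the median of all genes in rods from 0.03 to -0.12. Replicate numbers were not taken to pair the samples, since the design text calls the donors unrelated. Deviations of same-numbered libraries from the mean of their age correlated at -0.231 to -0.0485 over classes. With 2 libraries per age, crossing the numbers reverses the sign of these values. With the number as a block, 0 age comparisons of members were called and Gja1 in Müller nuclei changed by -0.93, and with the numbers crossed 0 were called. Depth was lowest in endothelium (391438 UMIs), then melanocytes (934183), pigment epithelium (1296139) and horizontal nuclei (2478920).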

Other observations

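An unnamed cluster of 220 nuclei, cluster 32, raised 9 of 10 bipolar markers while its leading genes held the cone marker Cngb3. Its Gjd2 level was 7.22, 39.2, 29.1 and 37.7 CPM (28.3 ± 14.7, SD, n = 4), from 20 UMIs, and 2.5-month donor 1 was low with 1 UMI. Panx1 and Gjc1 had 1 UMI each there. The cluster made up 0.555% to 0.989% of nuclei in the libraries and entered no bipolar value above.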
